A study of Homo sapiens with 18 samples.

Results

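TXNIP, the gene of thioredoxin-interacting protein, was followed as 1 transcript (ENST00000582401) of the 13051 in a table of readthrough reads from nascent RNA of K562 cells. A readthrough read is a long read of chromatin-bound RNA whose 3′ end lies at least 100 nt past the annotated end of the transcript. TXNIP was chosen by its own values in this table, namely its opposite moves after 1 h and 18 h of imatinib and its fall after KCl, so these differences are described without a test.

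K562 is an established line from a patient with chronic myeloid leukemia in blast crisis and carries the BCR-ABL1 kinase. The table held 18 libraries, 3 biological replicates of each of 6 groups. Untreated cells (CTRL) were grouped here in a set with cells given 110 mM KCl for 45 min (KCl 45min), which is a hyperosmotic shock. Cells given 5 μM JTE-607 for 1 h (JTE 1h), an inhibitor of the cleavage nuclease CPSF73, were placed in the same set. The sources do not say that these groups were prepared together. A separate untreated group (CTRLim) was prepared together with cells given 1 μM imatinib, the BCR-ABL1 inhibitor, for 1 h (IM 1h) or 18 h (IM 18h).

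TXNIP is an alpha-arrestin. It binds thioredoxin, a reductant of protein disulfides, and lowers glucose uptake by promoting removal of glucose transporters from the cell surface. Its transcription is driven by glucose through the factors MLXIP (MondoA) and MLX, which bind paired E-box-like half-sites in its promoter, and AMPK promotes turnover of the protein. ARRDC4 is a close relative, another alpha-arrestin driven by the same factors.

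The TXNIP transcript lies on the minus strand of chromosome 1 (GRCh38, 145992435 to 145996579) and has 8 exons in GENCODE 44. Its last exon runs from 145992435 to 145993886, and readthrough was counted from position 145992335 onwards. The 30 bases that end the TXNIP and ARRDC4 transcripts are shown because readthrough is RNA that was not cut there. Capitals mark AATAAA, the hexamer read by the cleavage machinery.

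TXNIP transcript end, chr1:145992435-145992464, minus strand: aaAATAAAgtttttttaatggaaaaaaaaa

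ARRDC4 transcript end, chr15:97973804-97973833, plus strand: ttcgttttattAATAAAattattacactaa

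The hexamer of TXNIP ended 22 bases before the end of the transcript, and that of ARRDC4 13 bases before it. AATAAA was present in the last 30 bases of 52.1% of the 12704 transcripts with a position, and its variant ATTAAA in 14.8%. The 250 bases before the start of each gene are shown because the same factors are known to drive both (RefSeq, GRCh38.p14). Capitals mark CACGNG, the E-box-like half-site, on either strand, and the bases between the paired half-sites of TXNIP.

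TXNIP promoter, chr1:145996580-145996829, minus strand: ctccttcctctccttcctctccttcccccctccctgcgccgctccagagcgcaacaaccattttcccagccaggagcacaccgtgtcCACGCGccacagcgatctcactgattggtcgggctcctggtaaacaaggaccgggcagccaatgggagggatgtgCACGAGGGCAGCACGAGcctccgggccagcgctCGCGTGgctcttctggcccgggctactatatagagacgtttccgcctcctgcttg

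ARRDC4 promoter, chr15:97960453-97960702, plus strand: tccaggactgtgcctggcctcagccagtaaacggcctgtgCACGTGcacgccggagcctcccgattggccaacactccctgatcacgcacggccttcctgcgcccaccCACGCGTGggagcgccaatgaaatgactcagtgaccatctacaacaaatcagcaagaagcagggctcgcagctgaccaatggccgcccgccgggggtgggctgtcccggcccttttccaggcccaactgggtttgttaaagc

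In the TXNIP promoter, a pair of half-sites separated by 5 bases spanned 88 to 72 bases before the start. Such a pair, searched on both strands, was found in 16 of 34788 promoters of this length (0.0460%), whereas a single half-site was found in 26.6%. The ARRDC4 window held no such pair but held the palindromic E-box CACGTG 210 to 205 bases before the start, a sequence present in 6.31% of promoters and itself a half-site on both strands. The TXNIP window also held the forkhead sequence GTAAACA 124 to 118 bases before the start (2.98% of promoters) and CCAAT boxes at 140 to 136 and 105 to 101 bases (32.0%). The ARRDC4 window held 3 CCAAT boxes, at 187 to 183, 128 to 124 and 67 to 63 bases. These matches are descriptions of letters, and binding was not measured here.

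The libraries held 8422 to 57982 readthrough reads each, which were 2.15% to 5.40% of all reads left after the filters of the study. Of 9 K562 marker genes, 8 were in the table and all 8 had readthrough reads, 7664 in total. HBG1 (4159) and HBE1 (2768) held most of these, while GATA1 held 38 and HBZ 1. The markers of T cells (13 reads on 1 of 4 genes), B cells (2 reads on 2 of 4), epithelium (5 reads on 2 of 3) and liver (none of 2 genes in the table) were at or near 0. Levels are given as readthrough reads per 1000000 library reads (RPM), and with bulk RNA a smaller share of cells carrying TXNIP RNA and less RNA per cell cannot be told apart. Reads ending inside the gene did not enter these values, so the amount of TXNIP transcription and the share of it that ran past the end are mixed in them.

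TXNIP had 4060 readthrough reads in the 18 libraries. In CTRL, replicates 1 to 3 held 23, 54 and 35 reads, or 63.8, 131.6 and 135.3 RPM (110.2 ± 40.3, SD, n = 3). In KCl 45min they held 1, 6 and 10 reads, or 2.44, 19.1 and 9.47 RPM (10.3 ± 8.38). Each KCl library was below each CTRL library, although with so few reads the 95% counting interval of the first ran from 0.0617 to 13.6 RPM. In JTE 1h the replicates held 28, 125 and 257 reads, or 60.9, 243.1 and 224.0 RPM (176.0 ± 100). Replicate 1 lay at the level of the lowest CTRL library, and the other two lay above all of CTRL.

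Every library of the imatinib set was above every CTRL library. CTRLim held 114, 202 and 183 reads, or 496.0, 374.0 and 371.7 RPM (413.9 ± 71.1). IM 1h held 184, 131 and 181 reads, or 273.4, 228.5 and 225.5 RPM (242.5 ± 26.8). IM 18h held 661, 968 and 897 reads, or 703.2, 757.8 and 664.7 RPM (708.6 ± 46.8). All IM 1h libraries were below, and all IM 18h libraries above, the range of CTRLim. The spread between replicates was 6.60% of the mean in IM 18h and 81.0% in KCl 45min. In KCl 45min the counting error of a library, taken as 1 over the square root of its reads, averaged 57.5%. The library with 1 read raised that average.

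**Figure D1:**
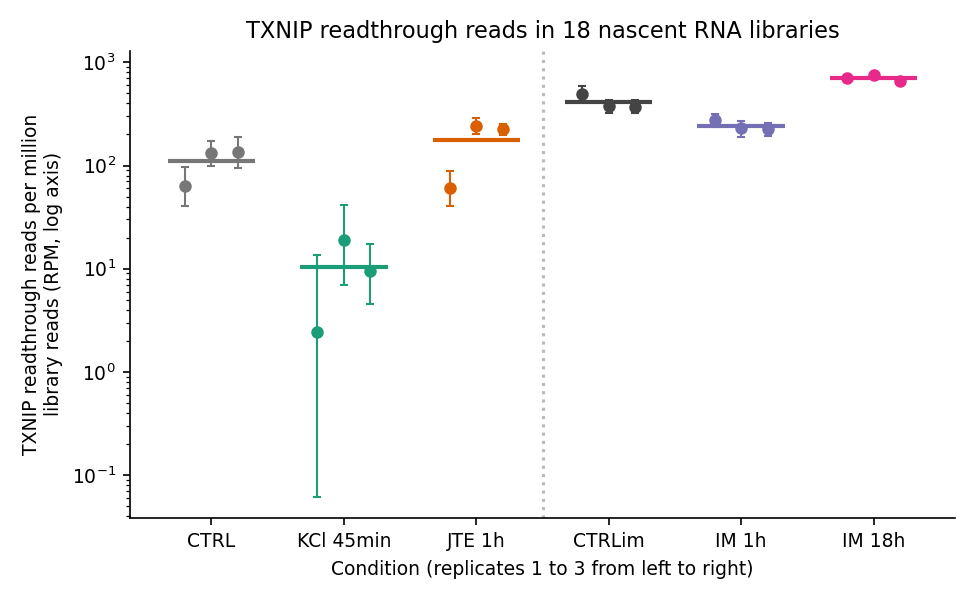
TXNIP readthrough reads per 1000000 library reads (RPM, log axis) in each of 18 libraries, with exact 95% Poisson intervals that cover counting error only; horizontal bars are group means of 3 libraries and the dotted line separates the library sets. IM 1h lies below CTRLim and IM 18h above it without overlap, and KCl 45min lies below CTRL.

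In order of mean level the groups ran KCl 45min, CTRL, JTE 1h, IM 1h, CTRLim and IM 18h. CTRL and JTE 1h overlapped, as did JTE 1h and IM 1h, while the other neighbours in this order did not. TXNIP made up 0.323% ± 0.115 of all readthrough reads in CTRL and 0.0417% ± 0.0307 in KCl 45min. Its share was 0.364% ± 0.143 in JTE 1h. In the imatinib set it was 1.02% ± 0.0821 in CTRLim, 0.553% ± 0.0627 in IM 1h and 1.91% ± 0.114 in IM 18h.

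After 1 h of imatinib the mean TXNIP level was 1.71-fold lower than in CTRLim, a log2 ratio of -0.77. The median change of the 988 transcripts tested in this comparison was 0.19, and 1.52% of them were called changed. After 18 h the level was 1.71-fold higher than in CTRLim, a log2 ratio of 0.78, beside a median of -0.01 and 14.1% called. Between the time points TXNIP differed 2.92-fold (log2 ratio 1.55), where the median was -0.30 and 18.3% were called. With KCl the level was 10.7-fold lower than in CTRL (log2 ratio -3.41), beside a median of -0.39 and 25.1% called. Both imatinib time points share the CTRLim libraries, so their ratios to it are not independent. With CTRL, which belongs to the other set, as the control, the direction at 1 h turned (log2 ratio 1.14).

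The moves together were rare in the table, as the choice of TXNIP implies. Among 1062 transcripts with at least 90 reads, 59 had all IM 1h libraries below all CTRLim libraries and 105 had all IM 18h libraries above them. TXNIP and LYPLAL1, a lysophospholipase-like gene, had both. KCl libraries lay below CTRL for 318 transcripts, and TXNIP alone combined all 3 moves.

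Comparisons of TXNIP other than those moves were tested with edgeR's quasi-likelihood test over all transcripts with at least 30 reads, adjusted by Benjamini-Hochberg. CTRL and CTRLim entered the choice of TXNIP as the references of its moves, so tests that use them are not independent of that choice. JTE 1h did not differ from CTRL for TXNIP beyond the spread between replicates (log2 fold change 0.69, SE 0.507, 95% interval -0.31 to 1.68, adjusted p = 0.636). The median of the 969 transcripts tested was 0.49, and 0.103% were called. The TXNIP value was 0.16 with TMM scaling, 0.19 with readthrough totals as library size and 0.20 by DESeq2. JTE replicate 1 stood apart, with 3.06% of its reads past gene ends against 5.40% and 5.05% in the others. Without it the log2 fold change of TXNIP was 1.09 (edgeR adjusted p = 0.0812).

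The untreated groups differed for TXNIP, but both had entered its choice, so the test between them is no independent support. TXNIP was 3.76-fold higher in CTRLim than in CTRL (log2 fold change 1.91, SE 0.377, 95% interval 1.17 to 2.64, edgeR adjusted p = 0.00383), higher in 3 of 3 libraries, and 10.6% of 472 transcripts were called. This gap was larger than either imatinib ratio to CTRLim. Library set and any difference between the cultures cannot be told apart.

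ARRDC4 (ENST00000268042, chromosome 15, 97960703 to 97973833, plus strand), the alpha-arrestin that shares the drivers of TXNIP, had 151 reads. It held 4, 10 and 2 reads in CTRLim (13.3 ± 8.04 RPM) and 2, 0 and 2 in IM 1h (1.82 ± 1.60). In IM 18h it held 30, 38 and 21 reads (25.7 ± 8.88). Like TXNIP, it was lower in each IM 1h library than in each CTRLim library, but these 20 reads were under the minimum for a test. ARRDC4 rose from 1 h to 18 h of imatinib (log2 fold change 3.61, SE 0.540, edgeR adjusted p = 7.63e-08), higher in 3 of 3 libraries. It reached the minimum of 30 reads through the 89 reads of IM 18h, with 4 in IM 1h, and without a minimum the adjusted p was 2.71e-09. Against CTRLim, IM 18h overlapped and did not pass (0.99, adjusted p = 0.144), though it did without IM 18h replicate 3.

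In the other set ARRDC4 held 2, 3 and 5 reads in CTRL (10.7 ± 7.5 RPM) and 0 in every KCl library, at least 5.76-fold lower when 3 reads over the KCl group are taken as the floor. TXNIP was lower in KCl as well. In JTE 1h ARRDC4 held 0, 8 and 24 reads (12.2 ± 10.9 RPM) and did not pass (log2 fold change 0.39, edgeR adjusted p = 0.875). As for TXNIP, JTE replicate 1 was the lowest of its group.

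**Figure D2:**
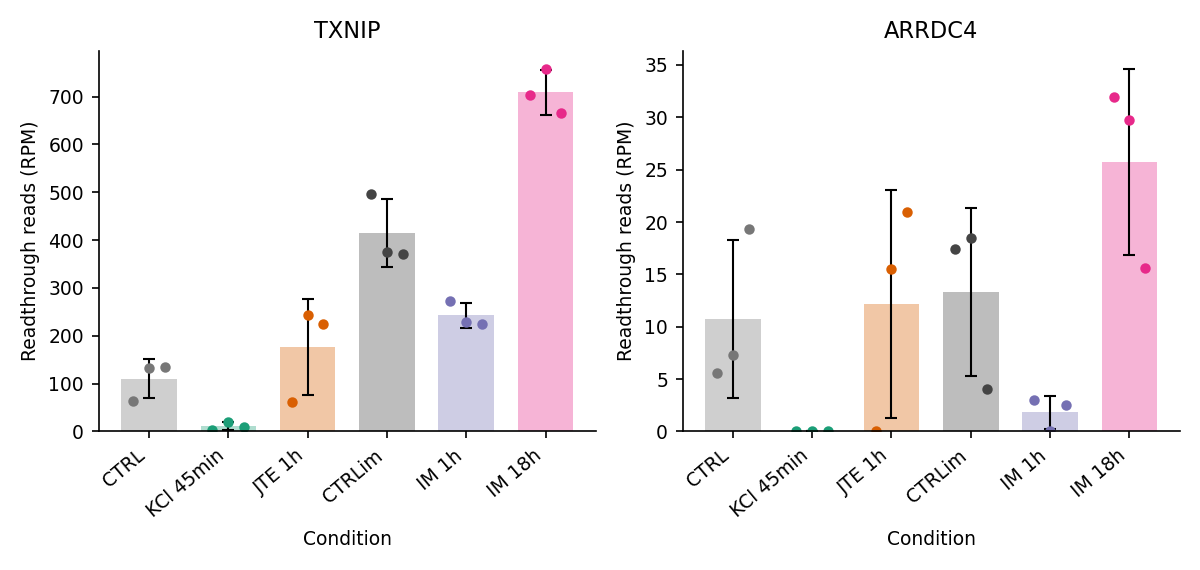
Readthrough reads per 1000000 library reads (RPM) of TXNIP (left) and ARRDC4 (right) by group; bars are means, error bars are SD and points are the 3 libraries. Both genes are lower in IM 1h than in CTRLim and highest in IM 18h, and ARRDC4 has no read in KCl 45min.

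The next gene on its strand, ANKRD34A, begins 27.9 kb past the end of TXNIP, and the convergent gene POLR3GL, an RNA polymerase III subunit, ends 13.6 kb away. The 16 other transcripts of the table within 250 kb had 0 to 99 readthrough reads each, 463 in all. Those with at least 30 reads included POLR3C (88), POLR3GL (41), NOTCH2NLA (42) and a pair of NBPF10 transcripts (63 and 99), of which the NBPF10 and NOTCH2NLA families have near-identical copies and are uncertain. In 7 tests on 3 transcripts of this window, edgeR called 0, with 1 at an unadjusted p under 0.05, and DESeq2 called 0. Of the tests, 3 were in IM 18h against IM 1h, where 18.3% of all transcripts were called. A further 2 were in IM 18h against CTRLim (14.1%), 1 in IM 1h against CTRLim (1.52%) and 1 in JTE 1h (0.103%). None was tested in KCl 45min, and so few tests give no result about the region.

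**Figure D3:**
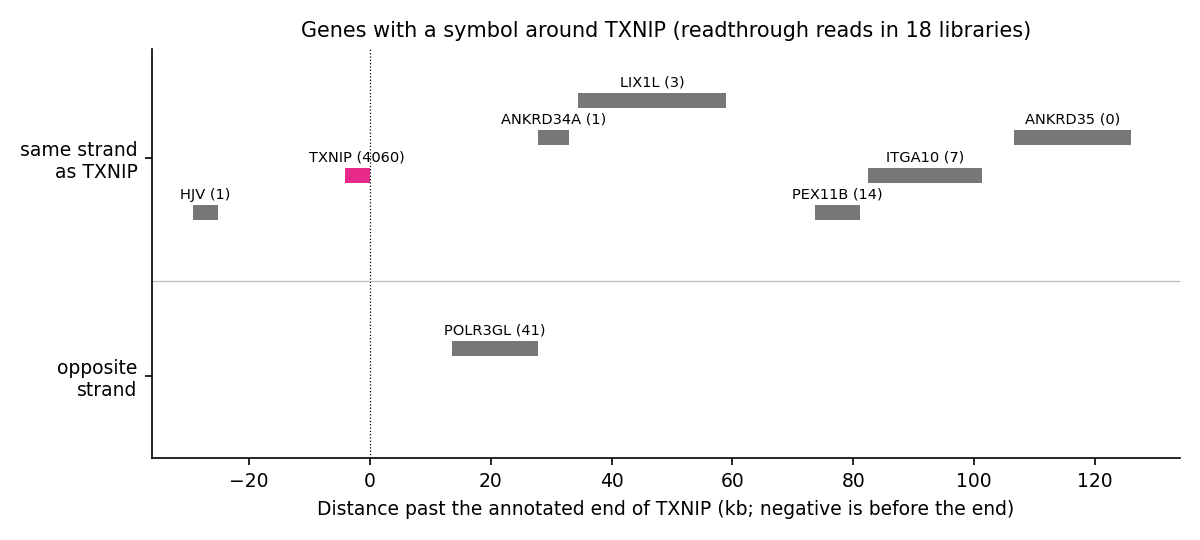
Transcripts of genes with a symbol in the count table near TXNIP, by distance past its annotated end (kb, to scale apart from a minimum drawn width), with readthrough reads summed over 18 libraries in parentheses. TXNIP, with 4060 reads, has no other gene of its strand for 27.9 kb past its end.

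The genes around TXNIP in redox control and glucose use were read from 6 lists, of which 61 genes were in the table and few had enough reads. In IM 1h against CTRLim edgeR called 0 of 13 tested genes, with 1 at an unadjusted p under 0.05, and DESeq2 called 0. In IM 18h against CTRLim 2 of 16 were called, both lower, and in IM 18h against IM 1h 4 of 20, 1 higher and 3 lower. KCl 45min against CTRL gave 1 of 6, lower. JTE 1h against CTRL gave 0 of 14 by edgeR, with 1 at an unadjusted p under 0.05, and 0 by DESeq2. These shares were 12.5%, 20.0% and 16.7% where any gene was called, beside 14.1%, 18.3% and 25.1% of all transcripts.

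In the arrestin family, ARRDC4 was the gene called. The median log2 fold change of its 3 tested members from 1 h to 18 h was 0.39, beside -0.30 for all transcripts. In the thioredoxin system none was called, with at most 2 of its 11 genes tested in a comparison. TXN, the thioredoxin that TXNIP binds, was sparse, at 5.06 ± 5.62 RPM in CTRLim, 7.55 ± 2.53 in IM 1h and 3.52 ± 1.74 in IM 18h. TXN held 5.13 ± 2.49 RPM in CTRL, 2.44 ± 4.22 in KCl 45min and 9.13 ± 3.47 in JTE 1h.

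Of 6 tested genes of glucose uptake and glycolysis, 3 were called lower at 18 h than at 1 h of imatinib and none higher. SLC2A1 went up without passing (log2 fold change 0.50). The median log2 fold change of the 6 genes was -1.09, beside -0.30 and 18.3% called over all transcripts. DESeq2 called none of them, and with TMM or readthrough totals PGAM1 alone was called. TPI1, triose phosphate isomerase, was at 34.8, 29.6 and 38.6 RPM in CTRLim, 22.3, 29.7 and 28.7 in IM 1h and 15.96, 13.3 and 11.1 in IM 18h. It was lower in IM 18h than in CTRLim (log2 fold change -1.35, SE 0.362, edgeR adjusted p = 0.00738) and than in IM 1h (-1.01, SE 0.334, adjusted p = 0.0226). The call against CTRLim was lost by DESeq2 (adjusted p = 0.0781) and without CTRLim replicate 3 (edgeR adjusted p = 0.0583). PGAM1, phosphoglycerate mutase, was lower in IM 18h than in IM 1h (-1.45, SE 0.401, edgeR adjusted p = 0.00492; DESeq2 adjusted p = 0.292). So was LDHB, a lactate dehydrogenase subunit (-1.41, SE 0.452, edgeR adjusted p = 0.0178). PGAM1 reached the minimum of 30 reads through the 38 reads of IM 1h, with 24 in IM 18h, and LDHB held 28 and 18. Without a minimum the edgeR adjusted p was 0.0193 for PGAM1 and 0.0832 for LDHB. The LDHB calls rest on a region inside the gene ENSG00000285854 of the same strand, and the TPI1 region lies inside SPSB2 on the other strand, so their reads are uncertain. TPI1 and LDHB in IM 18h against IM 1h also lost their calls under several other alternatives.

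SLC2A1, the glucose transporter GLUT1 whose surface level TXNIP lowers, was at 8.57 ± 4.45 RPM in CTRLim, 11.5 ± 3.81 in IM 1h and 16.7 ± 2.2 in IM 18h. No comparison of it passed (IM 18h against CTRLim 0.92, SE 0.470, edgeR adjusted p = 0.199). It was at 8.01 ± 5.78 RPM in CTRL and 7.53 ± 3.06 in JTE 1h, and had no read in KCl 45min.

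Of the factors that drive TXNIP, MLXIP was at 4.72 ± 1.24 RPM in CTRLim, 5.05 ± 2.97 in IM 1h and 5.59 ± 0.587 in IM 18h. MLX, its partner, was at 11.3 ± 2.27, 8.52 ± 7.36 and 10.7 ± 2.72 RPM in these groups. Neither was called in any comparison in which it was tested. In the other set MLXIP was at 4.79 ± 6.06 RPM in CTRL, 1.69 ± 1.60 in KCl 45min and 6.16 ± 4.15 in JTE 1h. MLX was at 13.9 ± 8.30, 3.38 ± 3.68 and 9.47 ± 4.71 RPM there. MYC, a factor of the same network that competes for E-boxes, was the one member called. It was at 82.7, 57.4 and 60.9 RPM in CTRLim, 43.1, 36.6 and 43.6 in IM 1h and 25.5, 26.6 and 29.6 in IM 18h. IM 18h was lower than CTRLim without overlap (log2 fold change -1.23, SE 0.282, edgeR adjusted p = 0.00147). IM 1h was also lower than CTRLim without overlap but was not called (-0.62, SE 0.254, edgeR adjusted p = 0.230). MYC held 52.0 ± 12.6 RPM in CTRL and 3 reads in all of KCl 45min (edgeR adjusted p = 3.58e-06). MYC reached the minimum there through the 55 reads of CTRL, and without a minimum the adjusted p was 4.83e-07. In the AMPK, FOXO and ubiquitin ligase list no gene was called, with 1 to 4 of 9 tested in a comparison. Among FOXO targets none was called either, with at most 2 of 6 tested and 0 in KCl 45min. Over all transcripts 0.103% to 25.1% were called in these comparisons, so such small numbers of tests give no result about these lists.

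**Figure D4:**
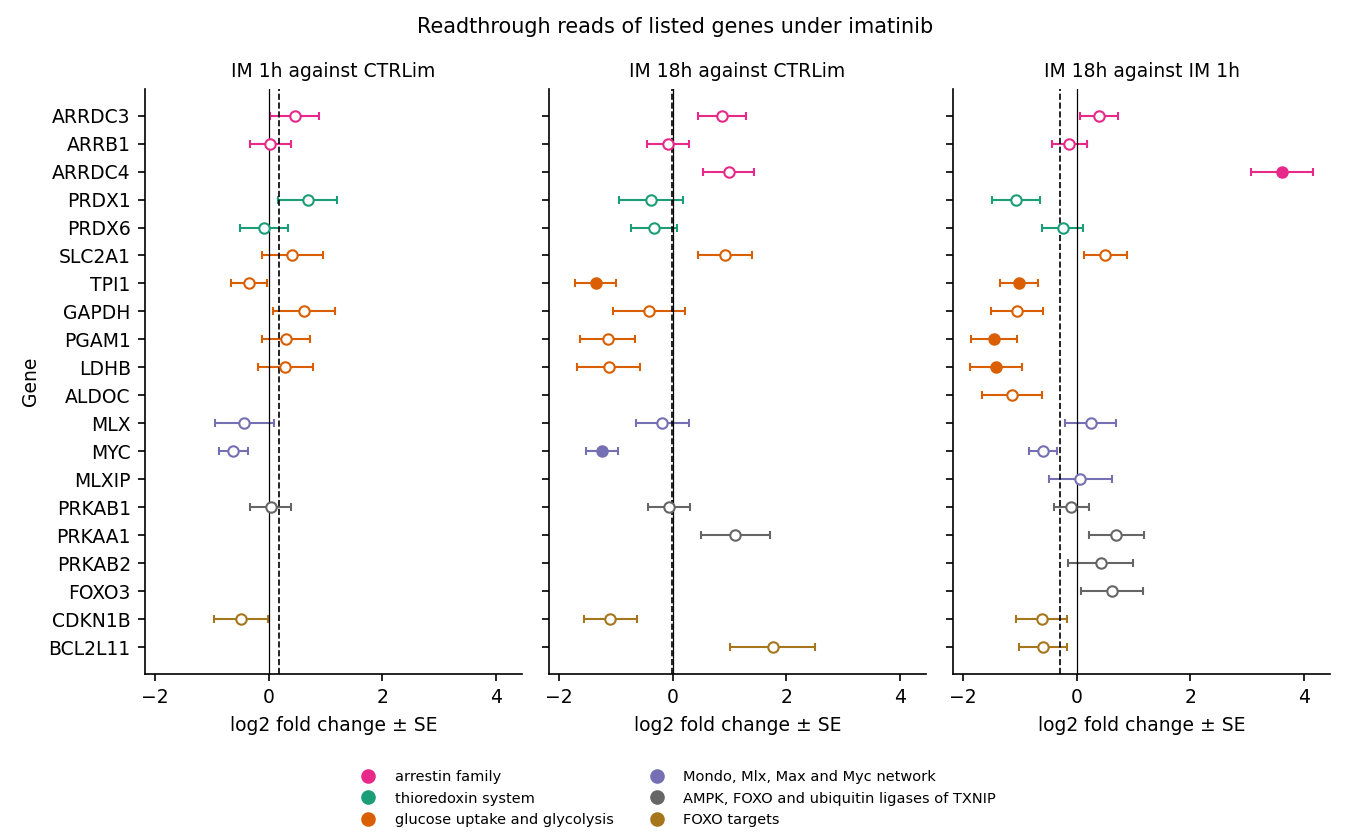
Log2 fold change with SE of the listed genes tested in the imatinib comparisons, coloured by list; filled points passed an adjusted p of 0.05 and the dashed line is the median of all transcripts tested. ARRDC4 stands at 3.61 in IM 18h against IM 1h, and the other filled points, of glycolysis genes and MYC, lie below 0.

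The transcripts most correlated with TXNIP depended on the libraries compared. Over all 18 libraries, among 1061 other transcripts with at least 90 reads, the highest Pearson r on log2(RPM + 1) was that of APEX1, a base excision repair endonuclease (r = 0.927). TBPL1 (0.924), NET1 (0.924), PNRC2 (0.921) and C6orf120 (0.921) followed, and the median transcript had r = 0.442. These 18 points share their library set and treatment, and ARRDC4 ranked 158 (r = 0.746). Over the 9 libraries of the imatinib set the order was LYPLAL1 (0.930), BMP2K (0.918), RBP5 (0.917), ARRDC4 (0.890) and ENSG00000256206 (0.866), with a median of -0.31. RBP5 (90 reads), BMP2K (147) and ARRDC4 (151) met the minimum of 90 only through IM 18h, the group where TXNIP was highest. Their place in the order is thus partly fixed by that minimum, which LYPLAL1 (279) and ENSG00000256206 (1030) met without IM 18h.

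Of the transcripts in this order, LYPLAL1 was at 23.1 ± 6.44 RPM in CTRLim, 16.7 ± 0.683 in IM 1h and 39.8 ± 8.95 in IM 18h. BMP2K, a kinase, was at 16.1 ± 7.12, 8.37 ± 0.782 and 27.5 ± 5.29 RPM. RBP5, a retinol-binding protein, was at 7.52 ± 3.38, 3.48 ± 0.983 and 15.4 ± 1.92 RPM. The dip and rise of these means follows from how they were chosen, as the transcripts most correlated with TXNIP over these libraries. LYPLAL1 was at 13.5 ± 7.18 RPM in CTRL and 19.0 ± 1.90 in KCl 45min, BMP2K at 0 and 5.21 ± 2.2, and RBP5 at 0.924 ± 1.60 and 5.26 ± 3.89. BMP2K with 0 reads in CTRL and RBP5 with 1 could not have shown a fall under KCl. The counted region of BMP2K lies within PAQR3 on the other strand and that of ENSG00000256206 inside COPB1, so their reads are uncertain.

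**Figure D5:**
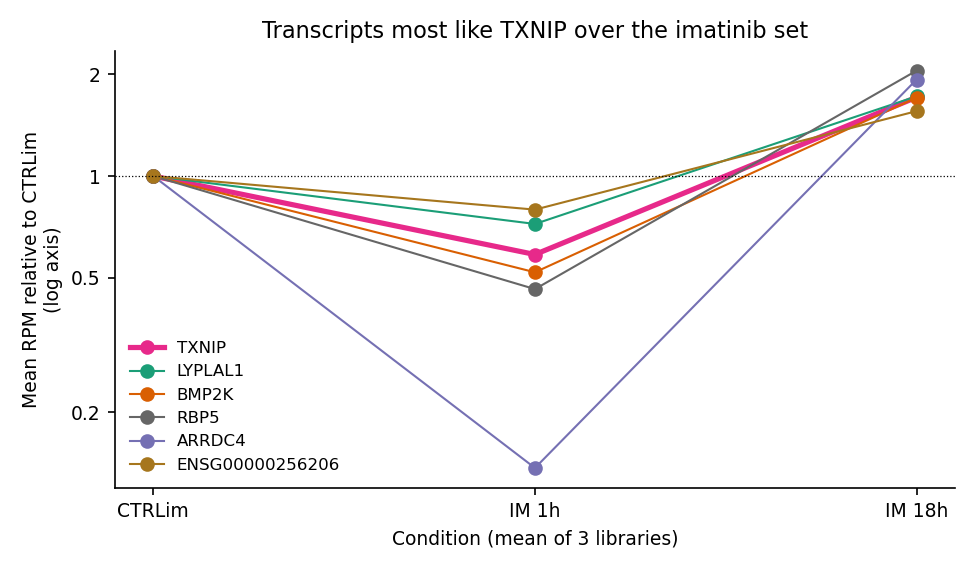
Mean RPM relative to CTRLim (log axis) in the imatinib set for TXNIP and the 5 transcripts with the highest correlation to it over 9 libraries; each point is a mean of 3 libraries. The shared shape follows from the choice of the transcripts on these libraries: all 6 dip at 1 h and exceed CTRLim at 18 h, with ARRDC4, on 16 and 4 reads in CTRLim and IM 1h, dipping furthest.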

How the data were processed

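Nascent RNA was taken from the chromatin of K562 cells, depleted of poly(A)+ RNA and rRNA, ligated to a 3′ adapter with a molecular identifier and sequenced as PacBio long reads. The authors trimmed adapters with cutadapt, mapped reads with minimap2 to GRCh38.p14, removed duplicates, and counted each read on the final exon of whichever transcript of a gene reached furthest 3′. The deposited values are whole counts of readthrough reads per transcript and library, neither normalized nor pooled. Whether the assignment to exons used strand is not given in the sources used here.

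Library totals were the reads left after the filters for polyadenylated reads and splicing intermediates, as listed by the study. RPM is reads per 1000000 of these. Transcripts were matched to GENCODE 44 by identifier (12704 of 13051). edgeR 4.0.16 (glmQLFit and glmQLFTest, R 4.3.3) was run on the 6 libraries of a comparison for transcripts with at least 30 reads, with these totals as library sizes and Benjamini-Hochberg adjustment, and an adjusted p under 0.05 was called. DESeq2 1.42.0 served as the other tool, and each was first tested on simulated data. Correlations used a pseudocount of 1 RPM. Python 3.11.15 and pandas 2.3.3 were used for the rest. Poisson intervals and the 3-read floor cover counting error only.

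TXNIP, the gene lists and the comparisons were chosen with earlier results of these data known, and no list is independent evidence. Named were TXNIP, ARRDC4, TXN, MLXIP, MLX and SLC2A1 whatever their values, up to 4 called genes per list and comparison, transcripts within 250 kb with at least 30 reads (1 item is not reported here), and the 5 most correlated transcripts. TXNRD1 and 5 other listed symbols had no row of that name. Replicate numbers were not used as a block, since no label says that a number marks a shared batch and not every same-numbered pair of libraries correlated above 0.1.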

Additional observations from a re-analysis of the deposited data

Results flagged for a closer look

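TXNIP moved in opposite directions at the imatinib time points, with every IM 1h library below and every IM 18h library above CTRLim, and the log2 ratio of IM 18h over IM 1h was 1.55. The difference was not tested, since the gene was chosen for it. ARRDC4 differed between the time points by a test of that difference, with a log2 fold change of 3.61 (edgeR adjusted p = 7.63e-08, higher in 3 of 3 libraries), and was called in all 12 alternatives run, with adjusted p from 1.86e-10 to 9.83e-04. It reached the minimum of 30 reads through IM 18h, which held 89 reads against 4 in IM 1h.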

How the results depend on the processing

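The direction of TXNIP in IM 1h against CTRLim reversed with CTRL as the control (log2 ratio 1.14) and was -0.11 with all 6 untreated libraries. For IM 18h against CTRLim the log2 ratio was 2.68 with CTRL and 1.43 with all 6 untreated libraries, and for KCl 45min it was -5.32 with CTRLim and -4.66 with all 6. TMM factors over all 18 libraries gave 1.21 for IM 18h against CTRLim and 1.99 for IM 18h against IM 1h, and TMM over the 6 libraries compared, an alternative chosen after seeing the data, gave 0.94 and 1.84. Readthrough totals as library size gave 1.79 for IM 18h against IM 1h. The cause of these moves was not tested. Leaving out each library in turn kept the TXNIP log2 ratio at -0.87 to -0.62 for IM 1h, 0.70 to 0.93 for IM 18h, 1.5 to 1.64 between the time points and -4.21 to -2.95 for KCl. The TXNIP tests kept their side of the threshold in all 13 alternatives each (adjusted p 0.0812 to 0.999 for JTE 1h, and 2.01e-04 to 0.0314 for CTRLim against CTRL). These alternatives reuse the groups that entered the choice of TXNIP.

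Of the listed genes, DESeq2 called 1 in IM 18h against CTRLim (MYC, with TPI1 lost). Leaving out a library gave 1 to 3, with TPI1 lost without CTRLim replicate 3. In IM 18h against IM 1h, 2 were called with TMM, with readthrough totals, without the filter and with all 18 libraries, 1 by DESeq2, and 2 to 5 leaving out a library, lowest without IM 1h replicate 2. TPI1 in that comparison lost its call in 8 of 12 alternatives, LDHB in 7 and PGAM1 in 1. In KCl 45min 3 were called without the filter, 2 with all 18 libraries and 1 to 2 leaving out a library. Without JTE 1h replicate 1, 1 listed gene (MYC) was called in JTE 1h, and 0 to 1 over the libraries left out.

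With the replicate block, 3 listed genes were called in KCl 45min (MYC, PRDX1 and PRKAB1), against 1 without it. Deviations from the group means correlated at 0.0124 to 0.344 between same-numbered libraries of the CTRL, KCl and JTE set (7 of 9 pairs above 0.1) and at -0.39 to 0.26 between others, and a library correlated best with its own number in 15 of 18 cases, a hint of pairing from the data. In the imatinib set the same-numbered values were -0.0228 to 0.130, and 11 of 18 cases were best with their own number. The TXNIP log2 ratios with the block were -0.76 in IM 1h, 0.79 in IM 18h, 1.55 between the time points and -3.78 in KCl 45min. Depth limits the low genes most, since ARRDC4 rests on 4 reads in IM 1h and TXNIP on 17 in KCl 45min.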
